A study of Mus musculus with 8 samples.

Results

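A set of 10 genes of the Nodal and activin pathway was followed across RNA immunoprecipitates of mouse embryonic stem (ES) cells: the ligands Nodal and Gdf3, the co-receptor Tdgf1 (also called Cripto), the secreted antagonists Lefty1 and Lefty2, the receptors Acvr1b, Acvr2a and Acvr2b, and the signal carriers Smad2 and Smad3. Their probes were chosen by the gene name printed in the array files, which gave 15 of 41174 probes for 10 of 27961 gene names. Of these, 9 probes for 9 genes were bright enough to be tested, meaning that every array of 1 group or more showed them well above background. All 9 were in fact well above background on all 8 arrays. Each tested gene therefore rested on 1 probe, printed as 1 spot per array. Acvr2a had no tested probe.

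Nodal, activin and Gdf3 are secreted proteins of the TGFβ family. They bring together type II and type I receptor kinases at the cell surface, with Tdgf1 as an added partner for Nodal and Gdf3, and the type I receptor then phosphorylates SMAD2 and SMAD3. These join SMAD4, enter the nucleus and switch on target genes, among them Nodal itself and the Lefty genes, whose products hold the signal in check. In the early embryo the pathway patterns the germ layers and the left-right axis, and in cultured ES cells many of its components are expressed.

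The cells were a re-derived transgenic mouse ES line called Dazl-GFP. DAZL is an RNA-binding protein of germ cells, and the series set out to find the RNAs it binds. Every array shared this line, the irradiated feeder fibroblasts under it, and a medium with 15% fetal bovine serum, leukemia inhibitory factor and the inhibitor pair called 2i, that is PD0325901 against MEK at 1 µM and CHIR99021 against GSK3β at 3 µM. The 3 input arrays held total RNA, and 5 arrays held RNA recovered by native immunoprecipitation (IP), without crosslinking: 3 with an antibody against GFP and 2 with an antibody against PABP1, a protein that binds poly(A) tails.

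The sources used here do not say whether GFP is joined to DAZL in this line or marks the activity of the gene, nor whether each replicate was a culture of its own. The p-values therefore weigh differences against the spread of these samples, and that spread may be technical. A control-antibody IP was not analysed here, and RNA that clings to the beads or the antibody is counted together with RNA bound to the targeted protein. Labels give each sample a number, but not a shared preparation. Arrays lay on 2 slides: inputs 1 and 2, PABP1 IP 1 and GFP IP 2 on the first, and input 3, PABP1 IP 2, GFP IPs 1 and 3 on the second.

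Values are log2 intensities over each array's 75th percentile. They compare a probe across arrays; probes differ in how strongly they bind, and no probe's level is set against another gene's as an amount of RNA. A difference between groups is given in log2 units with its standard error (SE) from limma, a linear model fitted to all 20625 tested probes of the 8 arrays, and p-values were adjusted by the Benjamini-Hochberg method over those probes with a threshold of 0.05. With this scaling the typical probe did not sit at 0: the median difference over all tested probes was -0.38 in the GFP IP relative to input, 0.22 in the PABP1 IP relative to input and -0.52 in the GFP IP relative to the PABP1 IP. With arrays scaled to their medians these became 0.16, 0.30 and -0.06. Differences relative to these medians are given where they change the reading. All comparisons use the same 8 arrays, and both IPs were set against the same 3 inputs, so they are not independent of each other.

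Arrays had 41.5% to 52.6% of spots well above background, and 75th percentiles of 63.6 to 182 intensity units. Over tested probes, arrays of a group correlated at 0.973 to 0.992, inputs with IPs at 0.874 to 0.921, and the IPs with each other at 0.843 to 0.892. Dazl itself was higher in the GFP IP than in input by 3.81 ± 0.21 (SE; limma adjusted p = 2.07e-05) and lower in the PABP1 IP (-1.70 ± 0.23, adjusted p = 0.000616). Of 16 ES cell markers 15 were tested, and their summed linear level, in multiples of each array's 75th percentile, was 2470 to 4390 in input, 2280 to 4170 in the PABP1 IP and 1740 to 2220 in the GFP IP. By counts, 7 of the 15 were higher and 3 lower in the GFP IP than in input (median 0.38; 10 and 1 with scaling to medians). Tdgf1 and Gdf3 are themselves on that list. All 20 markers of feeder fibroblasts were tested, with sums of 258 to 366, 345 to 368 and 125 to 186 in the same order; 15 of the 20 were lower and 1 was higher in the GFP IP than in input, while 6 to 12 were lower with the 3 other scalings tried and 1 with normexp background correction. Germ cell markers (7 of 10 tested, Sycp3 never above background) summed to 26.4 to 29.4, 25.9 to 26.9 and 181 to 194, and those of primitive endoderm (7 of 10 tested, Sox7 and Pdgfra never above background) to 2.56 to 4.13, 2.06 to 2.28 and 1.68 to 1.95. Dazl is itself a germ cell marker here, and Dppa3 is on the ES cell list too. By counts, 6 of the 7 germ cell markers were higher in the GFP IP than in input and 1 was lower, Nanos3 (-1.34 ± 0.27, limma adjusted p = 0.00359). Over all genes, with 1 probe a gene, 21.2% were higher and 43.4% lower there. The part of feeder RNA in the members' differences was not tested. These sums compare RNA recovered by an antibody with total RNA, and do not give numbers of cells or RNA per cell.

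In the GFP IP, the receptors Acvr1b and Acvr2b, the antagonist Lefty2, the co-receptor Tdgf1 and Smad3 were higher than in input, while the ligands Nodal and Gdf3 were lower. Thus 5 of the 9 tested probes were higher and 2 lower, beside 24.2% of all tested probes higher, 39.1% lower and 63.3% changed in either direction. The members' median difference was 0.66, beside -0.38 over all tested probes. In the PABP1 IP, 1 of the 9 was higher than in input (Tdgf1) and 1 was lower (Acvr2b), beside 34.5% of all tested probes higher, 25.9% lower and 60.4% in either direction; the members' median was 0.29, beside 0.22. Between the IPs, 4 of the 9 were higher in the GFP IP and 5 in the PABP1 IP, beside 26.6% and 43.7% of all tested probes, 70.3% together. The members' median was there -0.73, beside -0.52. Groups did not overlap for 7 of the 9 in the GFP IP against input (5 higher, 2 lower, beside 26.2% and 42.1% of all tested probes), for 7 in the PABP1 IP against input (4 higher, 3 lower, beside 40.7% and 30.5%) and for all 9 between the IPs (4 higher, 5 lower, beside 30.4% and 49.9%). Most tested probes on the arrays changed as well. Whether the members' counts depart from these shares was not tested, and the counts are not read as particular to the members.

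**Figure D1:**
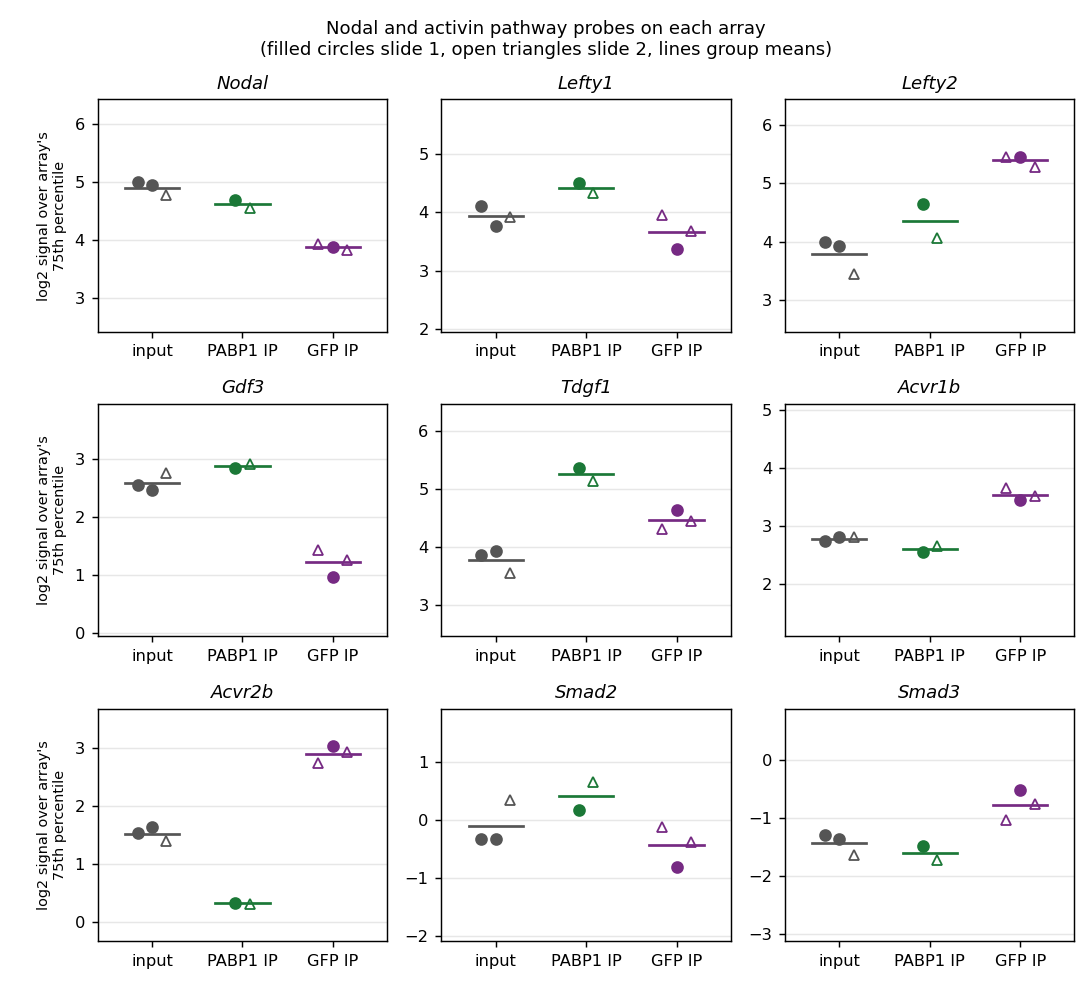
Level of each tested probe on each of the 8 arrays, as log2 intensity over the array's 75th percentile (vertical axis, the same span of log2 units in each panel), by group (horizontal axis); filled circles lie on slide 1, open triangles on slide 2, and lines are group means. For Nodal the 3 GFP IP arrays (3.84 to 3.93) lie below all other arrays, and for Lefty2 (5.28 to 5.46) and Acvr2b (2.75 to 3.04) above them.

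Nodal, the ligand that gives the pathway its name, was measured by probe A_52_P633560. Its level was 5.01, 4.94 and 4.77 on inputs 1 to 3, 4.69 and 4.55 on the PABP1 IP arrays, and 3.93, 3.89 and 3.84 on GFP IPs 1 to 3. The 3 groups formed separate bands, with input on top and the GFP IP at the bottom. Nodal was lower in the GFP IP than in input by 2.03-fold (-1.02 ± 0.12 SE, limma adjusted p = 0.000289), and relative to the typical probe by -0.64. With scaling to medians it was -0.49 (adjusted p = 0.0371), and it is -0.46 in the authors' deposited table. In the PABP1 IP it lay -0.29 ± 0.13 from input, which did not pass the threshold (adjusted p = 0.0954) although the arrays did not overlap. The same difference passed with quantile scaling (-0.63, adjusted p = 0.00161), the 75th percentile of probes above background on all arrays (-0.54, adjusted p = 0.00464), array weights (-0.32, adjusted p = 0.0343) and the slide as a block (-0.27, adjusted p = 0.0425). Against the PABP1 IP, the GFP IP was lower by -0.73 ± 0.13 (adjusted p = 0.00187). That gap was close to the shift of the typical probe: relative to it, Nodal lay at -0.21, and the call was lost when arrays were scaled to their medians (-0.27, adjusted p = 0.220) or by quantiles (-0.15, adjusted p = 0.220).

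Gdf3, a related ligand expressed in pluripotent cells, was read by probe A_51_P217039. Levels were 2.54, 2.46 and 2.76 in input, 2.85 and 2.91 in the PABP1 IP, and 1.43, 0.97 and 1.26 in the GFP IP. The GFP IP arrays lay more than 1 log2 unit below every other array, and the PABP1 IP arrays just above the inputs. Gdf3 was the lowest of the 9 members in the GFP IP relative to input, at -1.37 ± 0.16 (2.59-fold, limma adjusted p = 0.000274), and -0.99 relative to the typical probe. Scaling to medians gave -0.84 (adjusted p = 0.0310). Its PABP1 IP difference of 0.29 ± 0.17 did not pass (adjusted p = 0.188; 95% interval -0.12 to 0.70). Between the IPs it was 3.16-fold lower in the GFP IP (-1.66 ± 0.17, adjusted p = 0.000132). Feeder markers were lower in the GFP IP too, as given above; their part was not tested.

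Tdgf1 encodes the membrane-anchored co-receptor that Nodal needs to engage its receptors, and probe A_52_P23716 reads it. The probe stood at 3.87, 3.93 and 3.56 in input, 5.37 and 5.14 in the PABP1 IP, and 4.32, 4.64 and 4.45 in the GFP IP. Both IPs lay above every input, and the PABP1 IP above the GFP IP. Tdgf1 was called higher than input in both IPs, which held for no other tested member: by 2.77-fold in the PABP1 IP (1.47 ± 0.17, limma adjusted p = 0.000308) and by 1.61-fold in the GFP IP (0.68 ± 0.16, adjusted p = 0.00686; 1.22 with scaling to medians). Between the IPs it was lower in the GFP IP by -0.79 ± 0.17 (adjusted p = 0.00521), or -0.27 relative to the typical probe. That last call was lost with scaling to medians (-0.33), by quantiles (-0.12) and by the 75th percentile of probes above background on all arrays (-0.35). RefSeq lists pseudogenes of Tdgf1, and how far the probe also binds their RNA was not tested.

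Lefty1 and Lefty2 are closely related paralogues that encode secreted blockers of Nodal. Lefty2 (probe A_51_P407494) stood at 3.99, 3.93 and 3.43 in input, 4.65 and 4.07 in the PABP1 IP, and 5.46, 5.46 and 5.28 in the GFP IP. All GFP IP arrays exceeded all others, and the PABP1 IP arrays exceeded the inputs. Lefty2 had the largest difference of the 9 members in the GFP IP over input, 3.06-fold (1.61 ± 0.21, limma adjusted p = 0.000519), at percentile 91.2 of all tested probes. The PABP1 IP lay 0.57 ± 0.24 above input (adjusted p = 0.0701). That difference passed under 5 other settings: with the slide as a block (0.64, adjusted p = 0.00717), on slide 1 alone (0.69, adjusted p = 0.0384), without PABP1 IP 2 (0.86, adjusted p = 0.0324), with scaling to medians (0.65, adjusted p = 0.0247) and over probes above background on all arrays (0.57, adjusted p = 0.04998). The GFP IP exceeded the PABP1 IP by 2.06-fold (1.04 ± 0.24, adjusted p = 0.00583), or by 1.71 with quantile scaling.

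Lefty1 (probe A_51_P354706) gave 4.11, 3.77 and 3.92 in input, 4.51 and 4.33 in the PABP1 IP, and 3.95, 3.37 and 3.67 in the GFP IP. Input and GFP IP overlapped, and both PABP1 IP arrays were above all the rest. No difference from input passed the threshold: the GFP IP lay at -0.27 ± 0.18 (limma adjusted p = 0.219; 95% interval -0.69 to 0.15), a sign that turned to 0.26 with scaling to medians and is 0.32 in the authors' deposited table, and the PABP1 IP at 0.49 ± 0.20 (adjusted p = 0.0704). The latter passed without GFP IP 2 (0.49, adjusted p = 0.0485). Lefty1 was lower in the GFP IP than in the PABP1 IP by -0.76 ± 0.20 (adjusted p = 0.0117), which was lost without PABP1 IP 1 (-0.66, adjusted p = 0.0743), on slide 2 alone (-0.52, adjusted p = 0.0978), and with scaling to medians (-0.30), by quantiles (-0.22) or by the 75th percentile of probes above background on all arrays (-0.32).

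Set against each other within each array, where the scaling of the array drops out, the 2 antagonists were compared as a quantity chosen after the values had been seen. Lefty2 minus Lefty1 was -0.12, 0.16 and -0.49 in input, 0.13 and -0.26 in the PABP1 IP, and 1.51, 2.08 and 1.61 in the GFP IP. The GFP IP arrays lay above all others, which is the separation that prompted the comparison. The difference between GFP IP and input was 1.88, with an exact two-sided permutation p of 0.1, the smallest that 3 against 3 arrays allow, so this test cannot pass 0.05, and 0.15 after adjustment over 6 such comparisons; against the PABP1 IP it was 1.80, again with an exact permutation p of 0.1 (adjusted 0.15). In the PABP1 IP over input it was 0.09, with an exact permutation p of 0.9. The values describe the 2 probes, and not how far either probe also binds the other gene's RNA, which was not tested.

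**Figure D2:**
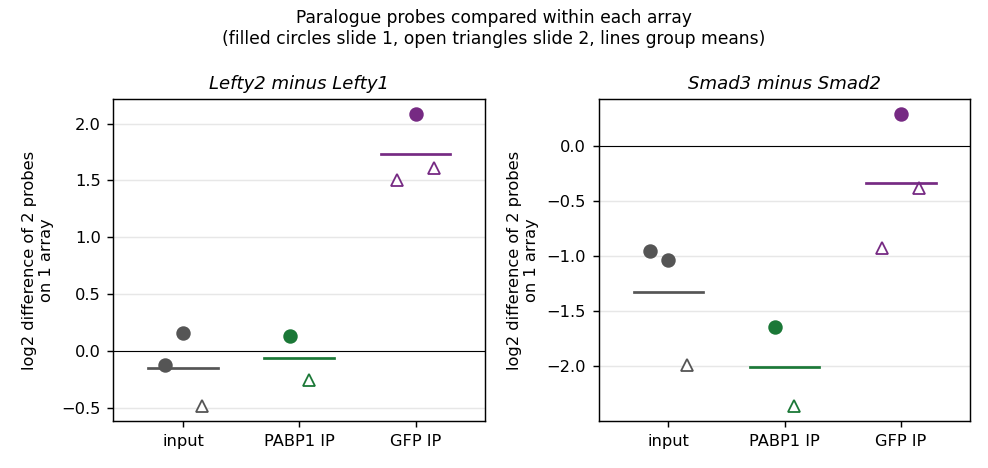
Difference in log2 intensity between the probes of 2 related genes on the same array (vertical axis), by group (horizontal axis), for Lefty2 minus Lefty1 (left) and Smad3 minus Smad2 (right); circles lie on slide 1, triangles on slide 2, and lines are group means. Lefty2 minus Lefty1 was 1.51 to 2.08 in the GFP IP and -0.49 to 0.16 on the other arrays.

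Among the receptors, Acvr2b, a type II receptor kinase that binds activin and Nodal, differed most between the 2 antibodies. Probe A_52_P422618 stood at 1.53, 1.64 and 1.40 in input, 0.33 and 0.33 in the PABP1 IP, and 2.75, 3.04 and 2.93 in the GFP IP. In linear intensity units before scaling these were 184, 235 and 292, then 132 and 183, then 1060, 1340 and 1390. Input lay between the IPs, with a gap of over 1 log2 unit on each side. The GFP IP was 2.61-fold above input (1.38 ± 0.13, limma adjusted p = 0.000118) and the PABP1 IP 2.29-fold below it (-1.19 ± 0.14, adjusted p = 0.000332). From one IP to the other the difference was 5.97-fold (2.58 ± 0.14, adjusted p = 1.29e-05), the largest in size among the 9 members in any of the 3 comparisons, at percentile 95.5 of all tested probes.

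Acvr1b, known as ALK4, is the type I receptor shared by activin and Nodal. Its brighter probe, A_52_P373893, read 2.74, 2.80 and 2.80 in input, 2.54 and 2.65 in the PABP1 IP, and 3.65, 3.44 and 3.51 in the GFP IP. The GFP IP arrays were above all others, while the PABP1 IP arrays lay slightly under the inputs. Acvr1b was 1.69-fold higher in the GFP IP than in input (0.75 ± 0.11, limma adjusted p = 0.00094; 1.29 with scaling to medians) and 1.91-fold higher than in the PABP1 IP (0.93 ± 0.13, adjusted p = 0.000437). For the PABP1 IP over input the difference was -0.18 ± 0.13 (adjusted p = 0.250); it passed at -0.37 with quantile scaling (adjusted p = 0.0294) and at -0.43 with the 75th percentile of probes above background on all arrays (adjusted p = 0.0166). The dimmer probe of the gene, A_51_P402391, was well above background only on GFP IPs 1 and 2, where it read 11.8 and 16.7 intensity units. No difference between groups is given for it.

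Acvr2a, the other type II receptor of the set, was close to or under background throughout. Probe A_52_P575854 was well above background on PABP1 IP 2 and GFP IP 2 only, at 10.3 and 16.1 intensity units, and read 4.52 to 10.4 on the inputs, where it was not well above background. Probes A_52_P11800 and A_52_P664656 were not well above background on any array, at 1.94 to 4.59 units. No difference between groups can be read from these probes.

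Smad2 and Smad3 carry the signal from the receptors to the nucleus. Smad3 (probe A_52_P352277) gave -1.28, -1.35 and -1.64 in input, -1.48 and -1.72 in the PABP1 IP, and -1.04, -0.52 and -0.75 in the GFP IP. All GFP IP arrays were above all others, and the other 2 groups overlapped. Smad3 was higher in the GFP IP than in input by 1.58-fold (0.66 ± 0.18, limma adjusted p = 0.0145; 1.19 with scaling to medians) and than in the PABP1 IP by 1.78-fold (0.83 ± 0.20, adjusted p = 0.00762; 1.29 with scaling to medians). The former became adjusted p = 0.0527 when all probes were tested without a filter on dim ones, and the latter was lost without PABP1 IP 2 (0.71, adjusted p = 0.0512). It was the dimmest of the tested members, at 26.1 to 114 intensity units. The PABP1 IP lay at -0.17 ± 0.20 from input (adjusted p = 0.492; 95% interval -0.64 to 0.30). The other Smad3 probes, A_51_P441022 and A_51_P376454, were not well above background on any array.

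Smad2 (probe A_52_P397280) varied most within groups. It read -0.33, -0.32 and 0.35 in input, 0.17 and 0.65 in the PABP1 IP, and -0.11, -0.81 and -0.37 in the GFP IP. In each group the arrays on the second slide were higher than those on the first, and input overlapped with both IPs. Neither IP passed against input: the GFP IP lay at -0.33 ± 0.27 (limma adjusted p = 0.307; 95% interval -0.96 to 0.30), with the sign turned to 0.20 by scaling to medians and 0.21 in the authors' deposited table, and the PABP1 IP at 0.51 ± 0.30 (adjusted p = 0.178; 95% interval -0.19 to 1.21). With the slide as a block both passed, at -0.52 (adjusted p = 0.00382) and 0.41 (adjusted p = 0.0144). The IPs differed by -0.84 ± 0.30 (adjusted p = 0.0375), a call lost without PABP1 IP 2 (-0.60, adjusted p = 0.195), GFP IP 2 (-0.65, adjusted p = 0.0919) or GFP IP 3 (-0.87, adjusted p = 0.0714), with each of the 3 other scalings of the arrays (-0.38, -0.77 and -0.41), and without a filter on dim probes (adjusted p = 0.0934).

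Within arrays, Smad3 minus Smad2 was -0.96, -1.04 and -1.99 in input, -1.65 and -2.37 in the PABP1 IP, and -0.92, 0.29 and -0.38 in the GFP IP. The GFP IP arrays were the 3 highest. Input and PABP1 IP overlapped over both slides, while on each slide the PABP1 IP array was the lower (-1.65 against -0.96 and -1.04, and -2.37 against -1.99). The GFP IP exceeded input by 0.99 and the PABP1 IP by 1.67, each with an exact permutation p of 0.1, the smallest these numbers of arrays allow (adjusted 0.15), and the PABP1 IP lay -0.68 from input with an exact permutation p of 0.3 (adjusted 0.36), a test that does not take the slide into account.

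**Figure D3:**
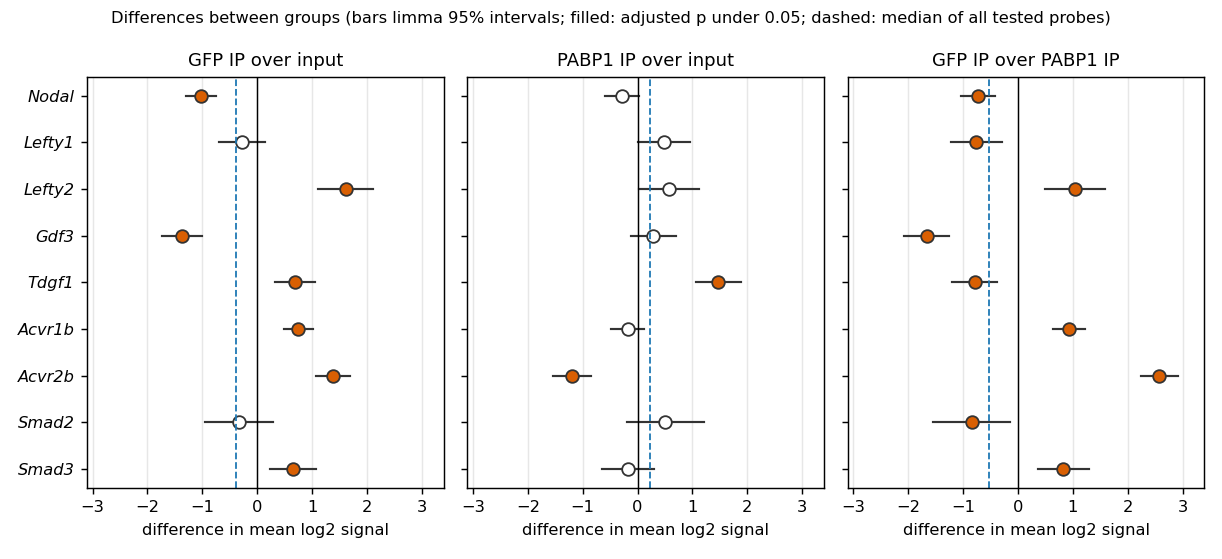
Difference in mean log2 level between groups (horizontal axis) for each tested member (vertical axis), with limma's 95% interval; filled points have an adjusted p under 0.05, and the dashed line is the median of all 20625 tested probes (-0.38, 0.22 and -0.52). Lefty2, Acvr1b, Acvr2b and Smad3 lie right of 0 in the GFP IP over both input and the PABP1 IP. Nodal, Gdf3, Lefty1 and Smad2 lie left of it in both, where Lefty1 and Smad2 are not called against input. Against the PABP1 IP, Nodal (-0.27), Lefty1 (-0.30) and Smad2 (-0.38) are no longer called with scaling to medians.

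Over the 3 comparisons the members thus fell into unlike profiles. Lefty2, Acvr1b, Acvr2b and Smad3 were higher in the GFP IP than in input and in the PABP1 IP. Gdf3 was lower in the GFP IP than in both, and Nodal was lower than in input, its call against the PABP1 IP being lost with scaling to medians and by quantiles. Tdgf1 was higher than input in both IPs. An alternative signal changed many calls: normexp with an offset of 50 on the raw spot means, which also leaves out the scanner software's removal of spatial trends and draws dim probes together. Which of these steps mattered was not tested. SEs grew, calls over all tested probes fell to 9.71% (GFP IP against input), 16% (PABP1 IP against input) and 26.5% (IP against IP), and 14 of the members' calls above were lost. The 4 that passed there were Gdf3 in the GFP IP against input (-1.18, adjusted p = 0.0481) and against the PABP1 IP (-1.71, adjusted p = 0.00844), Tdgf1 in the PABP1 IP over input (1.72, adjusted p = 0.0333) and Acvr2b between the IPs (1.82, adjusted p = 0.0110). For example, Lefty2 in the GFP IP over input stood at 1.47 with adjusted p = 0.0729, and Nodal at -1.07 with adjusted p = 0.138.

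The rest of the pathway was read from 6 lists, which overlap in part and in which the brightest probe stood for a gene. Of 76 further genes 61 were tested: 22 were higher and 9 lower in the GFP IP than in input (median 0.06), 20 higher and 13 lower in the PABP1 IP than in input (median 0.31), and 23 higher and 20 lower in the GFP IP than in the PABP1 IP (median 0.08). With 1 probe a gene over all genes, 21.2% were higher and 43.4% lower in the first of these comparisons (median -0.52), 34.3% and 25.3% in the second (median 0.24), and 23.6% and 47.6% in the third (median -0.68). With normexp the calls dropped to 6 higher and 0 lower, 5 and 3, and 9 and 5, where 9.71%, 16% and 26.5% of all tested probes were called in either direction.

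Of the 8 other type I and type II receptors, all of which are named here where tested, 6 were tested, and in the GFP IP 5 were higher than in input and 0 lower (median 1.45). The same counts came with the 3 other scalings, and 2 were higher and 0 lower with normexp. Beside this, 21.2% of all genes were higher and 43.4% lower in the GFP IP than in input, with 1 probe a gene. Tgfbr1, the type I receptor for TGFβ, was higher by 2.46 ± 0.14 (limma adjusted p = 2.44e-05), and Acvr1, a type I receptor for BMPs and activins also called ALK2, by 1.95 ± 0.14 (adjusted p = 4.47e-05). Tgfbr2 stood at 1.65 ± 0.24 (adjusted p = 0.000882), Bmpr1a at 1.24 ± 0.20 (adjusted p = 0.00152) and Bmpr2 at 0.78 ± 0.26 (adjusted p = 0.0318), while Acvrl1 did not pass (-0.03 ± 0.38, adjusted p = 0.956). A dimmer Bmpr2 probe lay at -0.29 there (adjusted p = 0.759). In the PABP1 IP the same receptors split, with 3 higher and 3 lower than input (2 and 1 with scaling to medians, 2 and 3 with the percentile over probes above background on all arrays, 1 and 1 with normexp). Of all genes, 34.3% were higher and 25.3% lower there. Acvr1 (1.73 ± 0.15, adjusted p = 8.85e-05), Acvrl1 (1.53 ± 0.42, adjusted p = 0.0156) and Tgfbr2 (0.78 ± 0.27, adjusted p = 0.0394) were higher there. Bmpr2, the type II receptor for BMPs, was lower by -2.89 ± 0.29 (adjusted p = 0.000143), with Bmpr1a at -0.78 ± 0.23 (adjusted p = 0.0202) and Tgfbr1 at -0.72 ± 0.16 (adjusted p = 0.00673) as well. The other Bmpr2 probes had the same sign there but smaller differences, -1.24 and -0.42. Between the IPs 4 receptors were higher in the GFP IP, led by Bmpr2 (3.67 ± 0.29, adjusted p = 3.74e-05; other probes 2.91 and 0.13) and Tgfbr1 (3.18 ± 0.16, adjusted p = 1.17e-05), and 1 was lower, which became 0 with each other scaling and with normexp. Of all genes, 23.6% were higher and 47.6% lower in the GFP IP than in the PABP1 IP.

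Of 12 further ligands and processing enzymes, 11 were tested; 1 was higher and 3 were lower in the GFP IP than in input (median -0.43), which scaling to medians turned to 3 higher and 1 lower (median 0.10). In the PABP1 IP 2 were higher and 3 lower than in input (median -0.05). Among all genes, with 1 probe a gene, 21.2% were higher and 43.4% lower in the GFP IP, and 34.3% and 25.3% in the PABP1 IP. Inhba, which encodes the subunit of activin A, was lower in the PABP1 IP than in input (-2.51 ± 0.33, limma adjusted p = 0.000512) and higher in the GFP IP than in the PABP1 IP (3.26 ± 0.33, adjusted p = 0.000112). Tgfb1, the founding ligand of the family, went the other way, higher in the PABP1 IP than in input (1.89 ± 0.20, adjusted p = 0.000185) and lower in the GFP IP than in the PABP1 IP (-2.68 ± 0.20, adjusted p = 3.02e-05).

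Secreted inhibitors and co-receptors were tested for 11 of 14 genes. In the GFP IP 1 was higher and 2 were lower than in input (median -0.45; 2 and 1, median 0.09, with scaling to medians). The 1 higher gene was Tmepai, another name of Pmepa1, a membrane protein that binds SMADs and stands on 2 of the other lists. No secreted inhibitor or co-receptor of this list was thus called higher by this fit, while the members Lefty2 and Tdgf1 were, as given above. Tmepai is named after its value was seen. In the PABP1 IP 3 were higher, Tmepai again among them, and 2 lower (median 0.22). The shares over all genes, with 1 probe a gene, were 21.2% higher and 43.4% lower in the GFP IP, and 34.3% and 25.3% in the PABP1 IP. Ltbp3, which binds latent TGFβ, was lower in the GFP IP (-1.43 ± 0.15, limma adjusted p = 0.000204), as was Hspa5, the chaperone BiP of the endoplasmic reticulum (-1.01 ± 0.15, adjusted p = 0.000948). Hspa5 was lower than in input in the PABP1 IP too (-1.16 ± 0.17, adjusted p = 0.000839), where Ltbp3 did not pass (-0.39 ± 0.17, adjusted p = 0.0853). Grem1, a BMP antagonist expressed in fibroblasts, was lower in the PABP1 IP (-2.07 ± 0.43, adjusted p = 0.00472). Dand5, a Nodal antagonist, was lower in the GFP IP than in the PABP1 IP (-1.93 ± 0.50, adjusted p = 0.0103).

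SMAD cofactors and regulators were tested for 17 of 20 genes, of which 8 were higher and 2 lower in the GFP IP than in input (median 0.55), and 4 higher and 4 lower in the PABP1 IP (median 0.29). Over all genes, with 1 probe a gene, 21.2% were higher and 43.4% lower in the GFP IP, and 34.3% and 25.3% in the PABP1 IP. Normexp left 4 of these cofactors and regulators higher and 0 lower in the GFP IP, and 2 and 1 in the PABP1 IP. Tgif1, a corepressor that binds SMAD2 and SMAD3, was higher in both IPs than in input, by 3.57 ± 0.13 with the GFP antibody (limma adjusted p = 1.38e-05) and by 2.60 ± 0.15 with the PABP1 antibody (adjusted p = 2.10e-05). Smurf2, a ubiquitin ligase for SMADs and receptors, was higher in the GFP IP by 2.67 ± 0.23 (adjusted p = 9.05e-05), where its other probes gave 0.43 and 2.10. Trim33, which binds SMAD2 and SMAD3, was lower than in input in both IPs. It stood at -1.03 ± 0.11 in the GFP IP (adjusted p = 0.000244) and at -1.75 ± 0.13 in the PABP1 IP (adjusted p = 4.23e-05). Smad4, the common partner of SMAD2 and SMAD3, is named beyond the fixed rule; it stood at 0.90 ± 0.11 in the GFP IP over input (adjusted p = 0.000385) and at -0.12 ± 0.12 in the PABP1 IP (adjusted p = 0.450).

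Target genes of the pathway were tested for 12 of 17 genes: 6 were higher and 1 lower in the GFP IP than in input (median 0.42), 6 higher and 0 lower in the PABP1 IP (median 0.63). Of the BMP branch 10 of 13 genes were tested, with 6 higher and 1 lower in the GFP IP (median 1.01) and 5 higher and 3 lower in the PABP1 IP (median 0.63). Over all genes, with 1 probe a gene, 21.2% were higher and 43.4% lower in the GFP IP, and 34.3% and 25.3% in the PABP1 IP. With normexp, 1 target gene was higher and 0 lower in the GFP IP, and 0 and 0 in the PABP1 IP. For the BMP branch normexp left 0 and 0 in the GFP IP, and 1 and 1 in the PABP1 IP. Id3, a BMP target on both lists, was lower in the GFP IP than in the PABP1 IP (-2.06 ± 0.31, limma adjusted p = 0.000826).

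**Figure D4:**
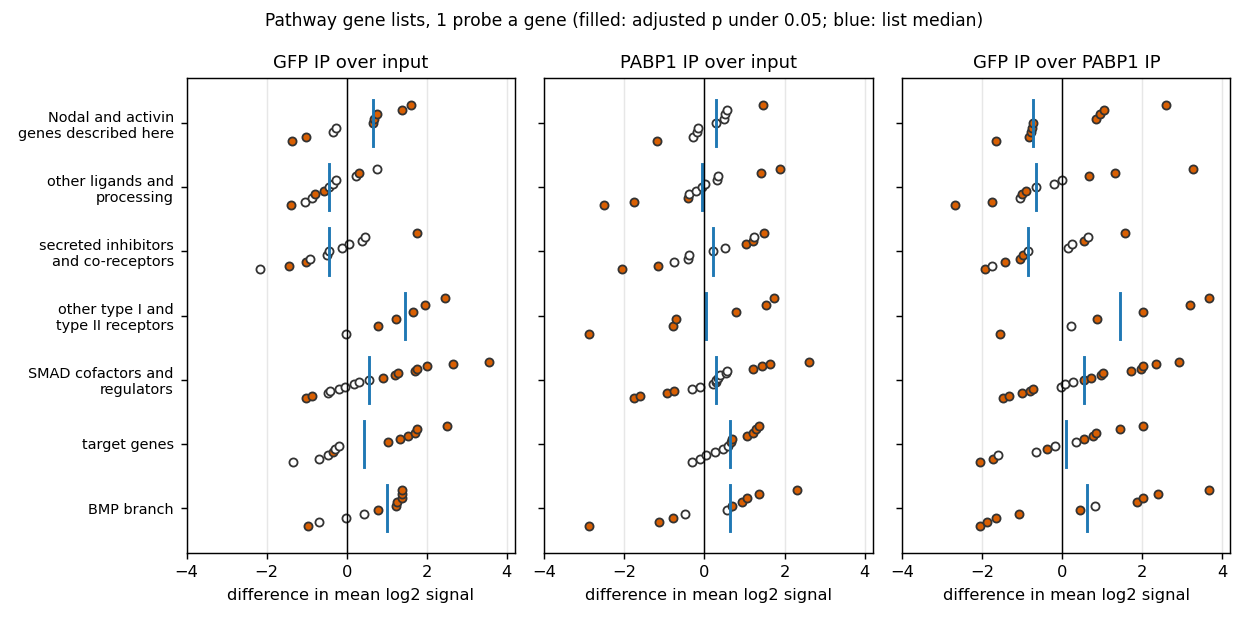
Difference in mean log2 level between groups (horizontal axis) for the tested genes of each list (vertical axis), with 1 probe a gene; filled points have an adjusted p under 0.05 and vertical bars are list medians. The other type I and type II receptors lie mostly right of 0 in the GFP IP over input (5 of 6 higher, median 1.45) and on both sides in the PABP1 IP over input (3 higher, 3 lower). Of all genes, 21.2% were higher and 43.4% lower in the former comparison, and 34.3% and 25.3% in the latter.

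For each member, the probes with the most similar profile over the 8 arrays were sought among the 15106 probes above background on all of them, as a description only, since the 8 points form 3 groups and share the same scaling. Pearson's r of the nearest gene ran from 0.970 to 0.999. Nodal was closest to Gsdmd (0.999) and Vps45 (0.998), and Gdf3 to Trub2 (0.998) and Bglap (0.998). Lefty2 was closest to Fen1 (0.996) and Mrps9 (0.995), and Tdgf1 to Selenot (0.996) and H3f3a (0.996). Acvr2b lay next to Lnpep and Brd3 (0.998 each), and Acvr1b next to Fbxw11 and Eif2s3x (0.997 each). Lefty1 (Coro1b, 0.970), Smad2 (Drr1, 0.990) and Smad3 (Pnpla8, 0.984) had looser neighbours.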

How the data were processed

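RNA from 8 samples in 3 groups was measured on 1-colour Agilent arrays; groups came from the antibody in the labels. The authors' intensity values came, per the file headers, from Feature Extraction 9.1.3.1, which subtracted background, removed spatial and multiplicative trends and replaced dim signals by surrogates. They were deposited with 3 significant digits. Flags for background, saturation and outlier spots are other values deposited in the same files. The authors' deposited table of group mean intensities was used only as an alternative, as log2 ratios; the sources used here do not give its scaling.

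From log2 of the processed intensity, each array's 75th percentile over 43379 non-control spots was subtracted. Averaging spots gave 41174 probes, of which 30 that had an outlier spot were not used. The 20625 probes well above background on all arrays of at least 1 group were fitted with limma 3.58.1 (R 4.3.3; lmFit and eBayes, group means, all 8 arrays, two-sided, Benjamini-Hochberg adjusted). The fit was tested on simulated data, with independent noise, no slide effect and changes in few probes. The arrays differ in this, so that test does not show how the fit handles slide effects or changes in most probes. The number of arrays limits the precision. Genes of the lists were named through a RefSeq table of assembly GRCm38.p6, by accession for 15019 tested probes, by symbol for 2560 and by synonym for 1273, while 1773 kept the array's name.

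All members are given. Other pathway genes were named where, among called probes above background on every array compared, they were the 3 highest or 3 lowest differences of a comparison; Tgfbr2, Bmpr1a, Acvrl1, Smad4 and Tmepai are named beyond that rule, after their values were seen. Members and lists were chosen with earlier results of these data known. Slides and replicate numbers were checked as batches: deviations from group means correlated at 0.417 to 0.740 for arrays on the same slide and at -0.740 to -0.242 across slides. With 2 arrays in the PABP1 IP group, their deviations are exact opposites, so correlations with them mirror each other and are not separate evidence. Between inputs and GFP IPs alone, values ran from 0.434 to 0.523 on the same slide and from -0.681 to -0.242 across slides. Same-numbered samples ran from -0.714 to 0.570, with those on the same slide at 0.512 to 0.570 and those across slides at -0.714 to -0.242. Their sign followed the slide, so this check cannot tell whether the numbers pair samples. Alternatives covered scaling, background correction, the filter, slide and replicate blocks, array weights, probe choice and leaving out each array. The within-array comparison of paralogues, and the counts of lists and of opposite signs under other scalings, were added after the values had been seen. Probe sequences and a genome were not used here.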

Additional observations from a re-analysis of the deposited data

Results flagged for a closer look

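For 6 members the difference from input had opposite signs with the 2 antibodies, and the difference between the IPs itself passed limma's adjusted threshold; this held for 41.5% of all tested probes. With each of the 3 other scalings it held for 4 members, without Lefty1 and Smad2. The share of all tested probes was then 34.8% (medians), 35.9% (quantiles) and 37.3% (percentile over probes above background on all arrays). Under normexp it held for 2 members, Gdf3 and Acvr2b, and for 21% of all tested probes. The effect with the GFP antibody minus that with the PABP1 antibody was 2.58 for Acvr2b (1.38 against -1.19), 0.93 for Acvr1b (0.75 against -0.18) and 0.83 for Smad3 (0.66 against -0.17). It was -1.66 for Gdf3 (-1.37 against 0.29), -0.84 for Smad2 (-0.33 against 0.51) and -0.76 for Lefty1 (-0.27 against 0.49). Acvr2b is the member of which both single effects passed the threshold too. The median of all tested probes in this comparison was -0.52. Signals also appeared in IPs where no input array was well above background: the dimmer Acvr1b probe on 2 arrays, both GFP IPs, and 1 Acvr2a probe on 2 arrays, 1 of each IP. Groups held 3 arrays at most, so no single array was tested for standing apart.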

How the results depend on the processing

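Over 594 recomputed member differences, 540 kept their direction and side of the threshold, 33 lost a call, 18 gained one and 3 reversed; the cause was not tested. The reversed ones had not passed: with scaling to medians Lefty1 and Smad2 in the GFP IP over input turned to 0.26 and 0.20, and with normexp Acvr1b in the PABP1 IP over input turned to 0.037. Some of the 594 differences could not move: members have 1 tested probe each, so the choice of probe left all 27 as they were. Leaving out an array of the group not compared does not move a difference either. The authors' deposited means are not in this total: there 16 of 24 ratios moved by at least the probe's spread within groups. Normexp left 1 called member (0 higher, 1 lower) in the GFP IP over input, 1 (1 higher) in the PABP1 IP over input and 2 (1 higher, 1 lower) between the IPs, where 9.71%, 16% and 26.5% of all tested probes were called. Called members in the PABP1 IP over input numbered 4 (1 higher, 3 lower) with quantile scaling and with the percentile over probes above background on all arrays, 5 (3 and 2) with the slide as a block and 6 (4 and 2) with array weights. Of all tested probes, 60.4%, 60.1%, 73.7% and 66.1% were called in these 4 settings. Between the IPs the called members numbered 5 (4 and 1) with scaling to medians and by quantiles, and 6 (4 and 2) with the percentile over probes above background on all arrays. There 62.5%, 65.4% and 65.7% of all tested probes were called. Leaving out each array in turn gave 7 to 7, 2 to 3 and 7 to 9 calls in the 3 comparisons; where it left 1 PABP1 IP array, that array was assumed to vary like the others. A replicate block, though it is not known whether the numbers pair samples, gained 1 call, Lefty1 in the PABP1 IP over input (0.48, adjusted p = 0.0389), and ended none. Scaling also set the background: of called probes 38.2% were higher in the GFP IP over input, 64.3% with scaling to medians (7009 against 3887 probes); between the IPs 37.8% became 52.0%, and in the PABP1 IP over input 57.1% became 46.9% with the percentile over probes above background on all arrays. The median difference of all probes moved with scaling to medians to 0.16, 0.30 and -0.06. Probes near background, as for Acvr2a, allow no difference to be read.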

Other observations

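The authors' deposited table of group means, whose scaling is not known, gave log2 ratios of the GFP IP over input of 2.19 for Lefty2, 1.89 for Acvr2b, 1.31 for Acvr1b, 1.21 for Tdgf1, -0.46 for Nodal and -0.83 for Gdf3. Its ratios of the PABP1 IP over input were 1.55 for Tdgf1, 0.67 for Lefty2, 0.58 for Lefty1, 0.54 for Smad2, 0.39 for Gdf3, -0.12 for Acvr1b, -0.23 for Nodal and -1.14 for Acvr2b. Between the IPs, the authors' deposited table gave 3.03 for Acvr2b (2.58 in the fit), 1.53 for Lefty2 (1.04), 1.44 for Acvr1b (0.93) and -1.22 for Gdf3 (-1.66). It gave -0.23 for Nodal (-0.73 in the fit), -0.26 for Lefty1 (-0.76), -0.34 for Tdgf1 (-0.79) and -0.33 for Smad2 (-0.84). Each of these ratios lay above the fit's difference, so positive ones were larger and negative ones smaller in size. With scaling to medians the fit gave 3.04 for Acvr2b and -0.27 for Nodal. Smad3 could not be matched to 1 row of it.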
